A study of Mus musculus with 2 samples.

Results

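Cells that copy their DNA carry transcripts of the replication machinery, and leukemia cells that mature toward granulocytes carry transcripts of granule proteins. The cells described here were chosen for having the first and little of the second. They are 85 of the 8309 cells deposited from mouse *MLL-AF9* acute myeloid leukemia (AML), a leukemia driven by a fusion oncogene that keeps myeloid progenitors dividing. A cell was a candidate if it had 500 or more detected genes, fewer than 2 UMIs (unique molecular identifiers, the tags by which captured transcripts are counted) summed over *Camp* and *Ngp*, and 0 UMIs over the mitotic genes *Ube2c*, *Ccnb1*, *Cdc20* and *Aurka*. *Camp* and *Ngp* encode proteins of the secondary granules of neutrophils. The 10% of the 850 candidates with the largest share of UMIs in 6 genes of DNA synthesis, *Rrm2*, *Tyms*, *Tk1*, *Pcna*, *Asf1b* and *2810417H13Rik*, with both libraries pooled, are called members. The values of these 12 genes chose the cells, so they are given as a description only.

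Donor mice were *Kat2a* Flox/Flox with either Mx1-Cre -/- (WT) or Mx1-Cre +/- (KO), and all of them received pIpC, an interferon inducer that switches on Mx1-Cre where it is present. Lineage-depleted marrow taken 4 to 6 weeks later was transduced with a retrovirus carrying *MLL-AF9* and a YFP reporter and was transplanted into lethally irradiated hosts. Marrow from 5 terminal WT and 4 terminal KO leukemias was frozen, thawed and pooled by genotype, and live YFP-positive singlets were sorted for 10x Genomics libraries. There was thus 1 library per genotype, called here by its label, the leukemias within a pool cannot be told apart, and no difference between genotypes has a replicate check. All intervals below are 95% intervals for counting error only.

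The targeted gene could not be used to check the labels, because the assay reads the 3′ ends of transcripts and, per the study's methods, a rearranged *Kat2a* transcript that keeps the last exon is still made after excision. *Kat2a* had 12.2 CPM (counts scaled to a total of 1000000 UMIs, 10.2 to 14.3) over kept cells of the WT-labelled library and 95.8 CPM (89.1 to 103) over those of the KO-labelled library. Members held 0 and 3 *Kat2a* UMIs, where 3 counts equal 32.9 and 47.7 CPM, so the gene could not be compared within them. Every direction between libraries below depends on an assignment of barcodes to genotypes that was taken from the study's code and that these counts cannot check. Candidates were shallower in the KO-labelled library, with a median of 1231.5 UMIs against 1738.5, and none of the 28 barcode sequences found in both libraries belonged to a candidate.

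In S phase the MCM helicase is loaded at origins and opened, polymerases copy the strands while the sliding clamp PCNA tethers them, and ribonucleotide reductase and thymidylate synthase feed the fork with deoxynucleotides. New DNA is wrapped by histones that chaperones such as ASF1 deliver. Most of these genes are switched on late in G1 by E2F transcription factors. In the myeloid lineage, primary granule proteins such as elastase are made in promyelocytes, when cells still divide, and secondary granule proteins are made later, around the time of cell cycle exit.

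Upstream sequence is shown first for some genes of the replication machinery that had a higher level in the chosen cells, picked because their windows hold letters known from E2F sites. The 250 bases before the start of each gene (RefSeq, GRCm38.p6) were searched for TTCCCGC and TTGGCGC on both strands, read as GCGGGAA and GCGCCAA on the other. Each line holds 30 bases, 5′ to 3′ along the gene, with the matched letters in capitals.
*Rpa2*, single-strand DNA binding, chr4:132768312-132768341, plus strand: gctgtcccttcGCGGGAAggagtttgtggc
*Mcm6*, helicase subunit, chr1:128359796-128359825, minus strand: ggcgtatgcttTTGGCGCgaaaagtgcgtg
*Mcm7*, helicase subunit, chr5:138172030-138172059, minus strand: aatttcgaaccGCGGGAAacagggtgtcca
*Dtymk*, thymidylate kinase, chr1:93801988-93802017, minus strand: agttccgcgagTTGGCGCtcgctaaactgc
*Cdk2*, the S phase cyclin-dependent kinase, chr10:128705173-128705202, minus strand: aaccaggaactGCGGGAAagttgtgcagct
The match in *Rpa2* began 37 bases before the start site and that in *Dtymk* 72 bases before it. A match was present in 31 of the 118 genes with a window among the 161 that had a higher level in members (26.3%), in 13 of 146 among those with a lower level (8.9%), in 33 of 103 replication genes (32%), in 292 of 2339 genes tested (12.5%) and in 1743 of all 27025 symbols (6.45%). A window without these letters says nothing about the gene's regulation: 5 of the 6 rule genes had a window and 0 of the 5 held a match.

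The WT-labelled library gave 40 members of 508 candidates (7.87%, 5.68 to 10.6%) and the KO-labelled library gave 45 of 342 (13.2%, 9.76 to 17.2%). A share of UMIs is coarse in cells this shallow, and the depth of the libraries differs. Members held between 1 and 24 rule gene UMIs, and 47 of the 85 (55.3%) held only 1 or 2, namely 18 in the WT-labelled library and 29 in the KO-labelled library. The last members inside the limit had 2 rule UMIs of 2113, 1 of 1058 and 1 of 1062. The first cells outside had 1 of 1080, 1 of 1101 and 2 of 2226, so the limit of 0.0942% of UMIs separated no distinct groups. With members required to hold 3 or more rule UMIs, 22 and 16 remained, and the log2 ratio of the member shares (KO to WT) went from 0.74 (0.09 to 1.39) to 0.11 (−0.92 to 1.11).

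These cells were a small part of those with the same rule gene share. At or above the same limit lay 1079 of the 3866 kept cells of the WT-labelled library (27.9%) and 1358 of the 3545 of the KO-labelled library (38.3%), and 2314 of these 2437 cells carried 2 or more *Camp* and *Ngp* UMIs. The cells with 2 or more *Camp* and *Ngp* UMIs, no mitotic UMI and a share above the limit, 434 and 621 in the WT- and KO-labelled libraries, serve below as a comparison that was chosen after the values were seen.

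Most rule genes were carried by a minority of members. *Rrm2*, the small subunit of ribonucleotide reductase, had 51 UMIs in 17 of 40 members in the WT-labelled library and 27 in 15 of 45 in the KO-labelled library. *Pcna* was the most widespread, with 60 UMIs in 27 members and 64 in 37. *2810417H13Rik*, which encodes a PCNA-binding factor, had 65 UMIs in 25 members and 34 in 14. *Asf1b*, a histone chaperone, was uneven, with 13 of its 32 UMIs in a single member of the WT-labelled library and 8 UMIs in 4 members of the other. Of the members, 13 and 24 owed their choice to a single rule gene. All 6 genes were seen in 3 members of the WT-labelled library and 1 of the KO-labelled library.

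All 6 rule genes belong to DNA synthesis, so what follows is a description and no independent check. Each rule gene is given without its own part in the choice, by choosing cells on the other 5. Chosen in this way, members had 26.6 times (15.1 to 48.8) the *Rrm2* level of other candidates in the WT-labelled library and 17.8 times (7.71 to 46.2) in the KO-labelled library. *Tyms* was at 19.2 times (8.08 to 48.8) and 16.5 times (6.12 to 51.4). *Pcna* gave the smallest ratios, 5.24 (3.54 to 7.69) and 4.27 (2.71 to 6.64). Leaving out *Pcna* also changed the members most, and 58 of 85 cells remained.

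A wider description uses a set of 126 replication genes in 8 lists that the rule did not use. Together they took 10846 CPM in members of the WT-labelled library against 3938 in other candidates, a ratio of 2.75 (2.56 to 2.96). In the KO-labelled library they took 9272 against 4213 CPM, a ratio of 2.20 (2.00 to 2.42). Of the 126 genes, 39 had 20 or more UMIs over candidates in each library, and 21 of these were 1.5-fold or more higher in members of both libraries while 1 was lower. The same criterion was met by 161 of all 3052 genes tested in the upward direction (5.28%) and by 187 in the downward direction (6.13%). The median ratio of the 39 genes was 2.46 and 1.79 in the WT- and KO-labelled libraries, and that of all genes tested was 0.99 and 0.97. As the members were chosen on genes of the same process, these values describe the cells and test nothing.

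The level of these replication genes was not even over members. The median member spent 0.82% of its UMIs on them in the WT-labelled library and 0.46% in the KO-labelled library, against 0.33% and 0.36% in other candidates. Members with 3 or more rule UMIs had medians of 1.33% and 1.38%, and 19 of 22 and 12 of 16 lay above the 95th percentile of the other candidates (0.752% and 0.849%). Members with 1 or 2 rule UMIs had medians of 0.32% and 0.34%, and only 3 of 18 and 4 of 29 lay above that percentile. Summed over the cells, the level in members with 1 or 2 rule UMIs was 1.27 times (1.06 to 1.51) and 1.41 times (1.21 to 1.63) that of other candidates, with 35 of 135 and 36 of 203 UMIs in 1 cell each. Most of the 38 members with 3 or more rule UMIs were thus also high in replication genes outside the rule. Most of the other 47 did not lie above the 95th percentile of other candidates. Both sets of genes belong to the same process, so this describes the members and does not test the name S phase. The split at 3 UMIs was chosen with the data in view, and it also moved with depth, as the median UMI counts were 2799.5 and 1675.5 in the upper group and 1477.5 and 1000 in the lower.

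**Figure D1:**
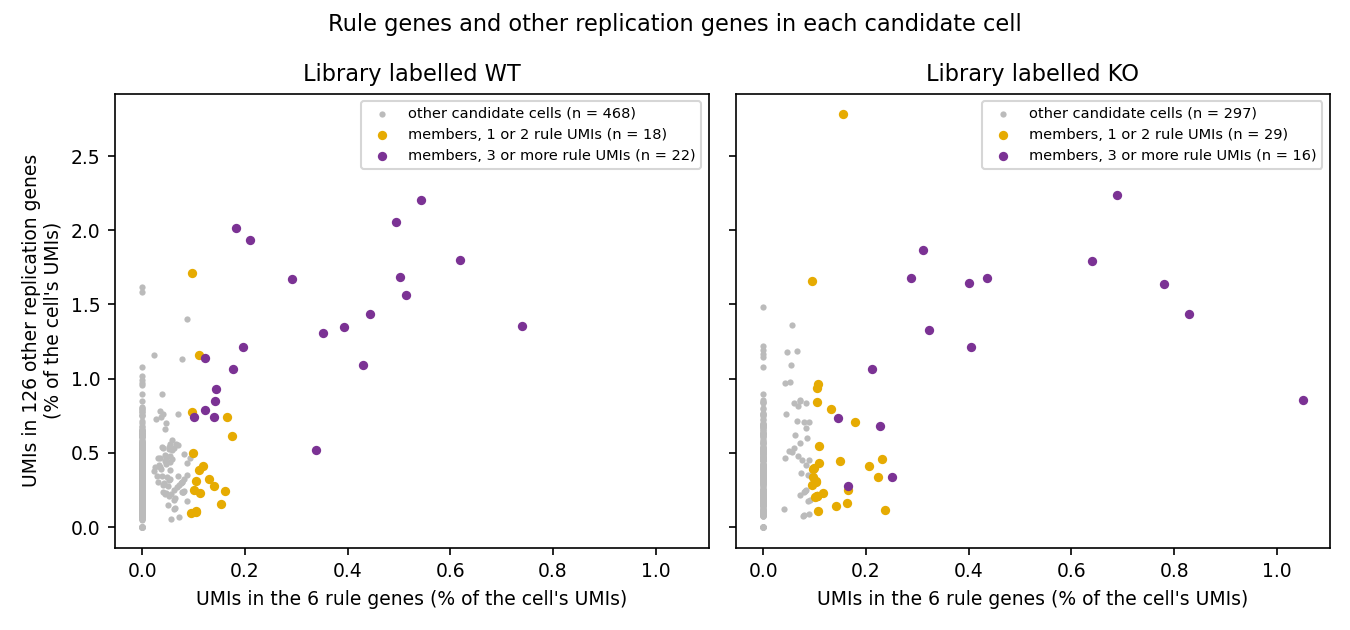
Each point is a candidate cell, with the percent of its UMIs in the 6 rule genes on the x axis and in the 126 other replication genes on the y axis, for the WT-labelled library (left) and KO (right). Members with 3 or more rule UMIs (purple, 22 and 16 cells) have medians of 1.33% and 1.38% on the y axis, while members with 1 or 2 (yellow, 18 and 29) overlap the other candidates (grey, 468 and 297).

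A different choice by the same idea would have taken other cells. The 85 candidates with the highest share of the 126 replication genes included 40 of the members, 47.1% of each set. The overlap was 22 of 40 members (55.0%) in the WT-labelled library and 18 of 45 (40.0%) in the KO-labelled library.

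Helicase and licensing genes had some of the highest ratios. The 6 MCM genes together were 4.84-fold higher (3.66 to 6.35) in members than in other candidates of the WT-labelled library and 2.64-fold (1.79 to 3.83) in the KO-labelled library, and all 3 that were tested passed in both. *Mcm7* had 274 CPM against 23.5 in the WT-labelled library, but 95.4 against 56.9 on only 6 UMIs in the KO-labelled library. *Orc6*, a subunit of the origin recognition complex, had 231 against 33.6 CPM (6.86-fold, 3.73 to 12.4) and 302 against 61.8 CPM (4.89-fold, 2.54 to 9.24). *Gmnn* encodes geminin, which blocks a second round of licensing. Its level was 209 against 52.7 CPM (3.96-fold, 2.20 to 6.88) and 239 against 42.1 CPM (5.67-fold, 2.64 to 12.1). *Orc6* and *Gmnn* were the 2 of 5 tested origin licensing and firing genes that were higher in both libraries.

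Replication-linked repair genes had ratios of 5.28 (3.74 to 7.40) and 2.77 (1.60 to 4.66), on 55 and 22 UMIs in members, and the 1 gene of the list that was tested did not pass. Genes of the fork had a ratio of 2.86 (2.43 to 3.36) in the WT-labelled library and 2.47 (1.98 to 3.06) in the KO-labelled library for clamp loading and fork factors, of which 5 of 9 tested were higher in both. *Rpa2*, whose product coats single-stranded DNA, had 13 and 15 UMIs in 8 and 12 members and was at 6.07 times (2.79 to 12.7) and 6.89 times (3.10 to 15.4) the level of other candidates. *Tipin*, of the fork protection complex, was at 5.55 times (3.42 to 8.84) and 2.05 times (1.04 to 3.80). Polymerase and primase genes gave 1.85 (1.43 to 2.37) and 1.91 (1.39 to 2.58). Within that list *Pold2* was higher in both libraries, with 6 UMIs in 6 members and 20 in 10, and *Pold4*, a small accessory subunit of polymerase delta, was the only tested replication gene lower in both, at 0.66 of the level of other candidates in each.

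Nucleotide synthesis genes gave 2.81 (2.37 to 3.32) and 2.31 (1.84 to 2.89), with 5 of 6 tested genes higher in both libraries. *Dut*, whose product removes dUTP, had 571 against 69.5 CPM in the WT-labelled library (8.22-fold, 5.57 to 12.1) and 334 against 126 CPM in the KO-labelled library (2.65-fold, 1.51 to 4.48). *Dtymk* was at 2.48 and 2.40 times and *Dctpp1*, which clears altered dCTP, at 2.54 and 2.36 times. Chromatin assembly and maintenance methylation genes gave 2.62 (2.21 to 3.09) and 1.78 (1.39 to 2.25), with 2 of 6 tested genes higher in both libraries. G1/S regulators gave 2.07 (1.70 to 2.51) and 1.61 (1.23 to 2.08), with 3 of 6. *E2f1*, the transcription factor that drives S phase genes, had 9 UMIs in 8 members and 13 in 7, with ratios of 5.51 (2.15 to 13.2) and 7.60 (3.14 to 18.7). *Ung*, which removes uracil from DNA, was too rare for the test, but its 8 and 7 UMIs in members stood against 5 and 1 in all other candidates.

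Of the 10 genes with the highest ratios, ranking each gene on the library nearer to no difference, *Orc6*, *Gmnn*, *Rpa2*, *E2f1* and *Birc5* belong to the lists. The rest were *Stmn1*, *Dnajc9*, *Tuba1b*, *2610524H06Rik* and *Tmem183a*. *Stmn1*, which encodes a microtubule-destabilizing protein of dividing cells, had the most UMIs, 220 in 26 members of the WT-labelled library and 118 in 28 of the KO-labelled library. That was 10.6 times (8.69 to 12.8) and 5.54 times (4.29 to 7.13) the level of other candidates. It was high where rule UMIs were high: 3102 and 2922 CPM in members with 3 or more rule UMIs, and 780 and 996 CPM in members with 1 or 2, against 229 and 339 CPM in other candidates. *Birc5*, which encodes the mitotic protein survivin, had 12 UMIs in 5 members and 10 in 5, with ratios of 10.7 (4.32 to 26.7) and 6.43 (2.40 to 17.2). *Dnajc9*, a histone co-chaperone, had 11 of its 22 UMIs in the WT-labelled library in 1 cell.

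Transcripts of the later cell cycle were present although cells with *Ube2c*, *Ccnb1*, *Cdc20* or *Aurka* UMIs had been removed. The 49 other G2 and mitosis genes were at 2.85 times (2.44 to 3.32) and 1.95 times (1.58 to 2.40) the level of other candidates. This came mostly from members with 3 or more rule UMIs, at 3.50 times (2.96 to 4.12) and 2.76 times (2.14 to 3.52), and 1 cell held 32 of the 186 UMIs in the WT-labelled library.

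**Figure D2:**
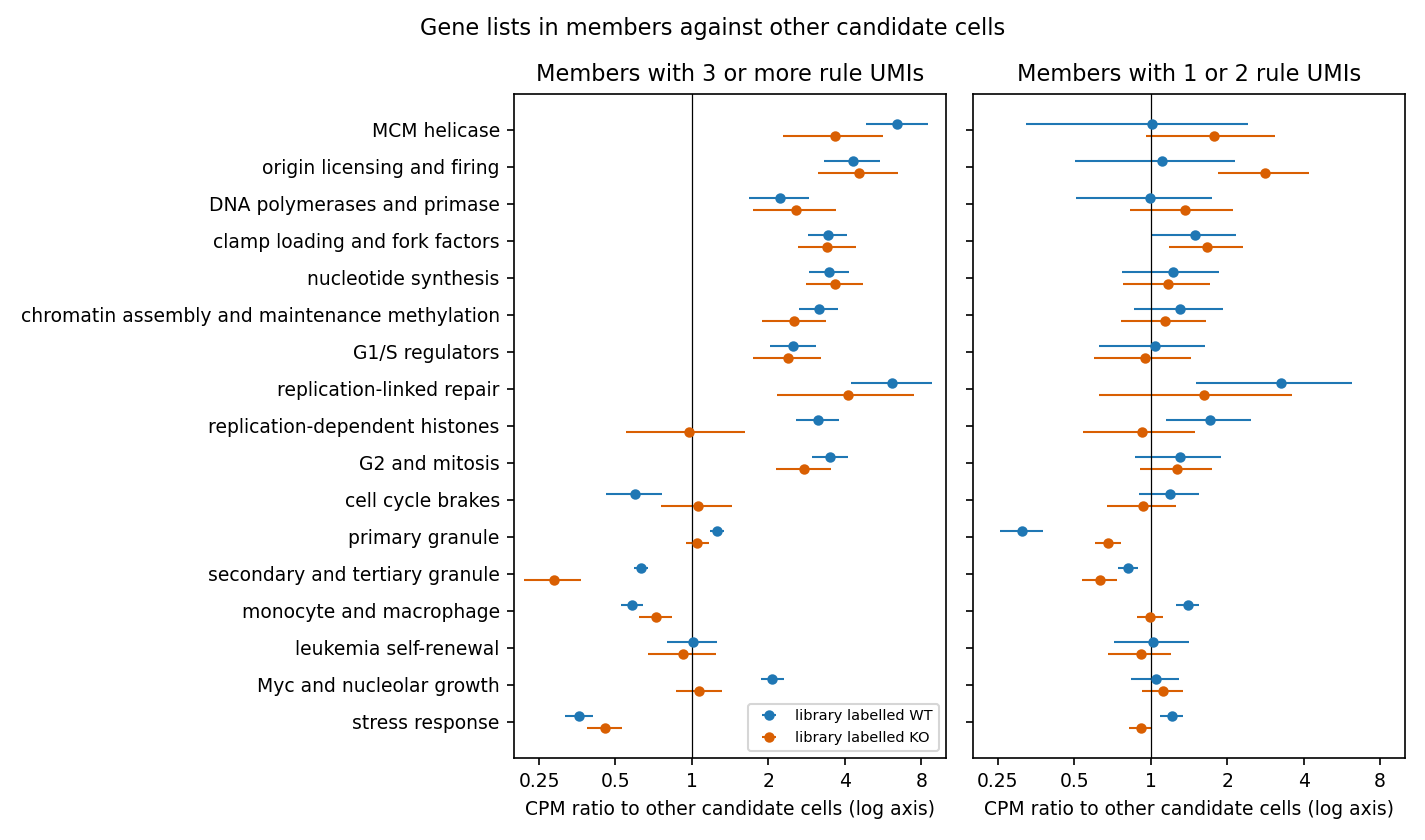
Ratio of summed CPM in members to that in other candidate cells for 17 gene lists on a log axis, for members with 3 or more rule UMIs (left) and with 1 or 2 (right). Points are the libraries labelled WT (blue) and KO (orange) and bars are 95% counting intervals: the 8 replication lists lie above 1 on the left in both libraries, and most of their intervals include 1 on the right.

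Replication-dependent histone genes are made in bulk only while DNA is copied, and their transcripts mostly lack the poly(A) tail that this assay captures. Their level over members was 1767 CPM in the WT-labelled library against 651 in other candidates (2.72-fold, 2.27 to 3.24), and 541 against 569 CPM in the KO-labelled library (0.95-fold, 0.64 to 1.37). In the WT-labelled library 34 of 40 members had such a UMI, and in the KO-labelled library 14 of 45. Thinned to 1000 UMIs per cell, which left out 2 and 14 members, the shares were 63.2% (46.0 to 78.2%) and 29.0% (14.2 to 48.0%). *Hist1h2ap* had 46 UMIs in 15 members (505 CPM) and 9 UMIs in 6 members (143 CPM). Of the 3 histone genes tested, it was the only 1 higher in both libraries, and 0 were lower. *Hist1h1c* had less than the 125 and 131 CPM of other candidates. It had 109 and 34.8 CPM in members with 3 or more rule UMIs, and 37.1 and 117 CPM in members with 1 or 2. A single member held 29 of the 161 histone UMIs of the WT-labelled library. The difference was also present among members with 3 or more rule UMIs, at 2042 and 557 CPM (log2 ratio, KO to WT, −1.88, −2.72 to −1.12), whereas in other candidates the log2 ratio was −0.19 (−0.42 to 0.03). It was not particular to members. The *Camp*- or *Ngp*-bearing cells above the limit had 1599 CPM (1537 to 1663) and 1070 CPM (1019 to 1124). Cells above the limit with mitotic UMIs and fewer than 2 *Camp* and *Ngp* UMIs had 3129 CPM (2786 to 3503) and 1966 CPM (1477 to 2566).

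The part of the name that says without granulocyte transcripts went against the data. Only *Camp* and *Ngp* were low by choice, and 27 of 40 and 30 of 45 members had 1 UMI of them. Primary granule genes took 1.26% of the UMIs of members in the WT-labelled library and 1.09% in the KO-labelled library. In the WT-labelled library 1 member held 277 of the 1144 UMIs. All 40 and 45 members had such a UMI, as did 453 of 468 and 286 of 297 other candidates. *Elane*, which encodes neutrophil elastase, had 5357 and 4008 CPM, and *Prtn3*, proteinase 3, had 2986 and 2942 CPM. *Elane* was seen in 19 of 22 and 12 of 16 members with 3 or more rule UMIs, and in 10 of 18 and 13 of 29 with 1 or 2. Other candidates had 5024 and 4903 CPM of *Elane* and 3263 and 2887 CPM of *Prtn3*. The list as a whole was at 0.98 (0.92 to 1.04) and 0.85 (0.78 to 0.92) of the level of other candidates. In these data the members are therefore best described by the rule, as *Camp*- and *Ngp*-low cells with the highest share of S phase rule genes.

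Secondary and tertiary granule genes took 1.67% of the UMIs of members in the WT-labelled library and 0.369% in the KO-labelled library. Most of this was *Chil3*, a chitinase-like lectin of immature neutrophils and monocytes, with 1292 UMIs in 32 members and 127 in 23. The cell with most had 241 of the 1292 and 65 of the 127. *S100a8* and *S100a9*, the calprotectin subunits, were low in members, at 736 and 557 CPM and at 450 and 350 CPM. Members and the cells above the same limit that carried *Camp* or *Ngp* were split on these secondary granule genes. Differences in granule genes between them therefore describe the choice and test nothing. The *Camp*- or *Ngp*-bearing cells had 19492 and 21371 CPM of *S100a8*, so that members stood at 0.038 and 0.026 of their level. Over granule genes this ratio was not uniform, as it was 0.57 and 0.54 for *Elane*, 1.11 and 1.60 for *Prtn3*, and 0.62 and 0.11 for *Chil3*. The part that free RNA in the droplets had in these values was not tested.

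Monocyte genes went the other way in the same comparison, which is again a description of groups split on *Camp* and *Ngp*. The list of 17 took 8563 and 8047 CPM in members against 3113 and 2502 CPM in the *Camp*- or *Ngp*-bearing cells, a ratio of 2.75 (2.55 to 2.97) and 3.22 (2.93 to 3.53). *Ctss*, a lysosomal protease, was at 5.81 and 7.40 times, *Ly86*, a partner of a Toll-like receptor homolog, at 4.42 and 4.16 times, and *Apoe*, the apolipoprotein of macrophages, at 6.99 and 4.09 times. *Csf1r*, the receptor for the macrophage growth factor, was at 7.09 and 3.46 times, although members held few of its UMIs (98.8 and 47.7 CPM). Against other candidates, by contrast, the same list was at 0.82 (0.76 to 0.88) and 0.87 (0.79 to 0.95). *Apoe* accounted for much of that, at 1032 against 2372 CPM and 732 against 1714 CPM, ratios of 0.44 (0.35 to 0.54) and 0.43 (0.31 to 0.58), and it was the only tested gene of the list that was lower in both libraries. *Ly6c2*, a surface protein of inflammatory monocytes and their progenitors, had 2196 against 1451 CPM and 1622 against 1366 CPM.

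**Figure D3:**
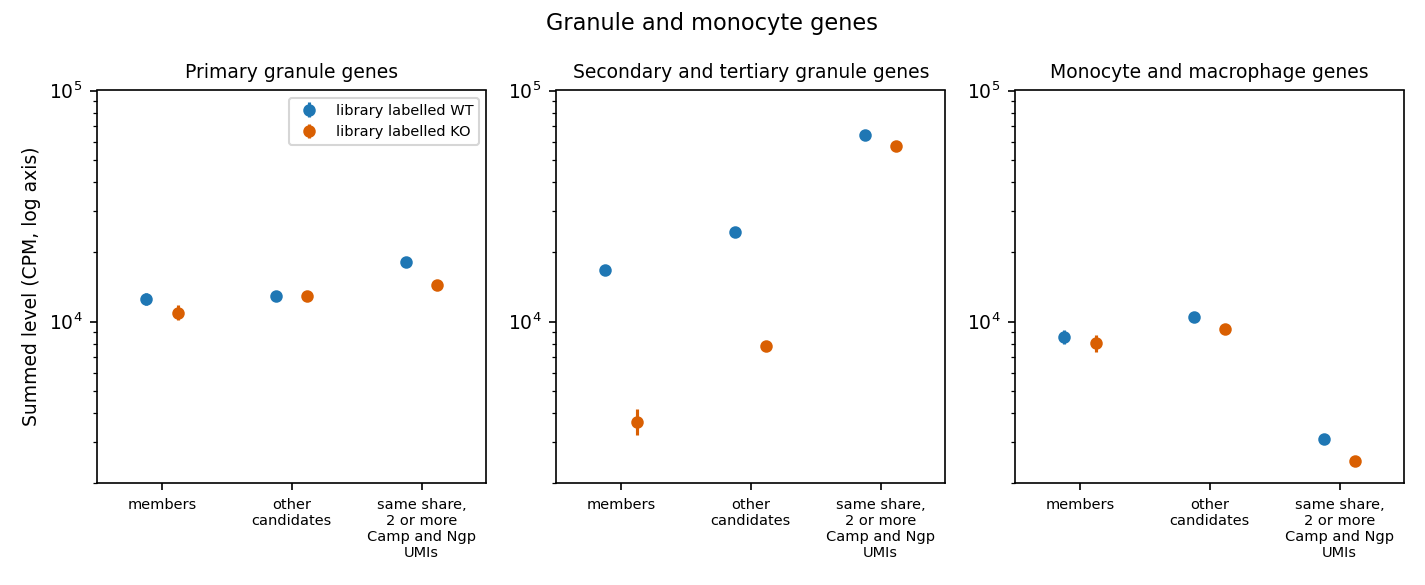
Summed level of the primary granule, the secondary and tertiary granule and the monocyte and macrophage gene lists in CPM on a log axis, for members, other candidates and cells above the same rule gene limit with 2 or more *Camp* and *Ngp* UMIs. Points are the libraries labelled WT (blue) and KO (orange) with 95% counting intervals: members lie near other candidates in the first panel, and hold more monocyte and fewer secondary granule transcripts than the *Camp*- or *Ngp*-bearing cells.

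The *Camp*- or *Ngp*-bearing cells had higher levels of the replication genes, and of the rule genes themselves (3265 and 3677 CPM against 2690 and 2767). Replication genes in members were at 0.86 (0.80 to 0.91) and 0.78 (0.72 to 0.85) of their level, 10846 and 9272 CPM against 12681 and 11905. With the 38 members of 3 or more rule UMIs alone, the level was 13295 and 13217 CPM. The *Camp*- or *Ngp*-bearing cells were not limited to 3 or more rule UMIs, so these values are not a like comparison with theirs. Cell cycle brakes, genes such as *Cdkn2d* and *Btg1* whose products restrain division, were at 1.47 times (1.22 to 1.77) and 1.59 times (1.27 to 1.97) the level of those cells, and at 0.77 (0.64 to 0.93) and 0.99 (0.78 to 1.23) of that of other candidates. The self-renewal list of *MLL-AF9* leukemia, with *Hoxa9*, *Mef2c* and *Myb*, was at 1.28 times (1.06 to 1.54) and 1.52 times (1.23 to 1.86). It was level with other candidates, at 1.01 (0.83 to 1.22) and 0.92 (0.74 to 1.13), and 0 of its 11 tested genes passed in either direction.

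Granule and monocyte genes also differed among members. Primary granule genes were at 16147 and 13496 CPM in members with 3 or more rule UMIs and at 4011 and 8732 CPM in members with 1 or 2. In the WT-labelled library 1 cell held 277 of the 1036 UMIs of the first group. Monocyte genes were at 6047 and 6678 CPM in the first and at 14557 and 9200 CPM in the second. *Lyz2*, lysozyme of monocytes and granulocytes, had 77 UMIs in the 22 members and 63 in the 16 with 3 or more rule UMIs, and 369 in the 18 and 200 in the 29 with 1 or 2. Ranked by rule share, the 28 highest members had 92 *Lyz2* UMIs and the 28 lowest had 359, although the lowest had fewer UMIs in all (40068 against 62940). *Fcgr3*, a receptor for antibodies on monocytes and neutrophils, had 6 against 27 UMIs. These 2 genes, with *Cd74*, *Snapc5* and *Prg3*, were the 5 that differed most along the ranking.

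Early response genes were lower in members than in other candidates, but higher in sum than in the *Camp*- or *Ngp*-bearing cells. The stress list was at 0.61 (0.56 to 0.66) and 0.70 (0.64 to 0.77), and 2 of its 10 tested genes, *Dusp1* and *Egr1*, were below the limit in both libraries. *Dusp1*, a phosphatase that shuts off MAP kinases, had 1570 against 2922 CPM and 2227 against 3622 CPM. *Fos*, a subunit of AP-1, had 2218 against 3714 CPM and 2751 against 3832 CPM. Members with 3 or more rule UMIs were lower, at 0.36 (0.32 to 0.41) and 0.45 (0.39 to 0.53), than members with 1 or 2, at 1.21 (1.08 to 1.34) and 0.91 (0.82 to 1.01). *Btg2*, an antiproliferative gene of the brake list, was at 0.42 (0.22 to 0.75) and 0.37 (0.12 to 0.90). The genes with the lowest ratios of all, such as *Evl* and *Pithd1*, rested on 1 UMI in each library. Against the *Camp*- or *Ngp*-bearing cells, by contrast, the stress list was at 1.70 times (1.56 to 1.85) and 1.70 times (1.55 to 1.85). Its level was 6598 and 8667 CPM in members and 3871 and 5109 CPM in those cells.

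Defining markers of B and T cells were at 0 in members. They held 0 UMIs of *Cd79a*, *Ms4a1*, *Pax5* and *Ebf1* of the B cell list, and 9 and 7 of *Cd79b*. Of the T and NK cell list they held 0 of *Cd3d*, *Cd3e*, *Cd3g* and *Klrb1c*, and 6 and 12 of *Nkg7*. *Hbb-bs*, a beta-globin gene, gave 1 and 2 UMIs and was the only gene of the erythroid list detected in members.

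Between the libraries, the replication genes of members were at 10846 CPM in the WT-labelled library and 9272 in the KO-labelled library, a log2 ratio (KO to WT here and below) of −0.23 (−0.38 to −0.08), against 0.10 (0.01 to 0.18) in other candidates. The sign depended on the limit. With 3 or more rule UMIs the ratio was −0.01 (−0.19 to 0.17), and it was 0.10 with shares counted after thinning to 1000 UMIs and 0.04 with the highest 10% of each library taken apart. Among members with 1 or 2 rule UMIs the ratio was 0.25 (−0.07 to 0.57). These members, lower in replication genes, were 29 of 45 in the KO-labelled library and 18 of 40 in the WT-labelled library. The ratio over all members therefore also depends on the mix of these groups.

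Of 549 genes with 50 or more UMIs over members, 110 (20%) were 1.5-fold or more higher in the KO-labelled library and 80 (14.6%) were lower. Of the 16 genes furthest apart, 15 pointed the same way in other candidates. The share of all 549 genes that did so was not counted, so this number has no background and describes the named genes only. *Chil3* had 14184 CPM in the WT-labelled library and 2020 in the KO-labelled library, a log2 ratio of −2.81 (−3.09 to −2.55), beside −1.91 (−1.97 to −1.84) in other candidates. *Lcn2*, lipocalin of secondary granules, had 49 UMIs in 21 members and 4 in 4, a log2 ratio of −3.08 (−5.01 to −1.63) beside −1.64 (−1.97 to −1.33). *Irf8*, the transcription factor that commits progenitors to the monocyte and dendritic lineages, had 62 UMIs in 23 members and 10 in 9, a log2 ratio of −2.10 (−3.23 to −1.12) beside −0.94 (−1.31 to −0.59). *Hist1h2ap* was the exception in direction, at −1.82 (−3.04 to −0.77) in members and 0.21 (−0.60 to 0.99) in other candidates.

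*Serpinb1a*, an inhibitor of neutrophil proteases, and *Cd24a*, a surface protein of immature myeloid cells, had ratios much nearer to 1 in other candidates. *Serpinb1a* had 1087 and 318 CPM, with a log2 ratio of −1.77 (−2.54 to −1.07) beside −0.24 (−0.45 to −0.04). *Cd24a* had 878 and 270 CPM, with −1.70 (−2.55 to −0.93) beside −0.51 (−0.78 to −0.25). *Clec4a2*, a lectin receptor, was at −2.64 (−4.33 to −1.31) beside −0.59, and *Dynll1*, a dynein light chain, at −2.17 (−3.29 to −1.20) beside −0.55. The difference between members and other candidates in these ratios has no test here.

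In the other direction *B2m*, the shared light chain of MHC class I, had 102 UMIs in 35 members (1120 CPM) and 240 in 40 (3817 CPM), a log2 ratio of 1.77 (1.43 to 2.12) beside 0.82 (0.71 to 0.93). *Tmed10*, a cargo receptor of the secretory pathway, had 296 and 859 CPM, with 1.53 (0.84 to 2.26) beside 0.22 (−0.03 to 0.47). *Zfp36l2*, which destabilizes AU-rich transcripts, was at 1.92 (1.11 to 2.79) beside 1.16. *Bloc1s2*, *Gltp* and *H2-DMa* were at 1.94, 1.61 and 1.53 beside 0.92, 1.01 and 0.89.

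Nucleolar and growth genes also differed in sum, although 1 of the 3 tested genes was lower and 0 were higher. The list of 18 had 5588 CPM in members of the WT-labelled library and 3594 in those of the KO-labelled library, a log2 ratio of −0.64 (−0.87 to −0.41) beside 0.06 (−0.04 to 0.15) in other candidates. Among members with 3 or more rule UMIs it was −0.90 (−1.23 to −0.58), with 6546 and 3513 CPM, and among those with 1 or 2 it was 0.15 (−0.26 to 0.56). *Eif4a1*, a helicase of translation initiation, gave 204 UMIs in 34 members and 83 in 35. Of the G1/S regulators, *Cdk4*, the G1 kinase, gave 33 UMIs in 17 members and 9 in 8. The G1/S list as a whole had a log2 ratio of −0.24 (−0.67 to 0.19) in members. It was 0.06 (−0.45 to 0.55) in those with 3 or more rule UMIs.

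**Figure D4:**
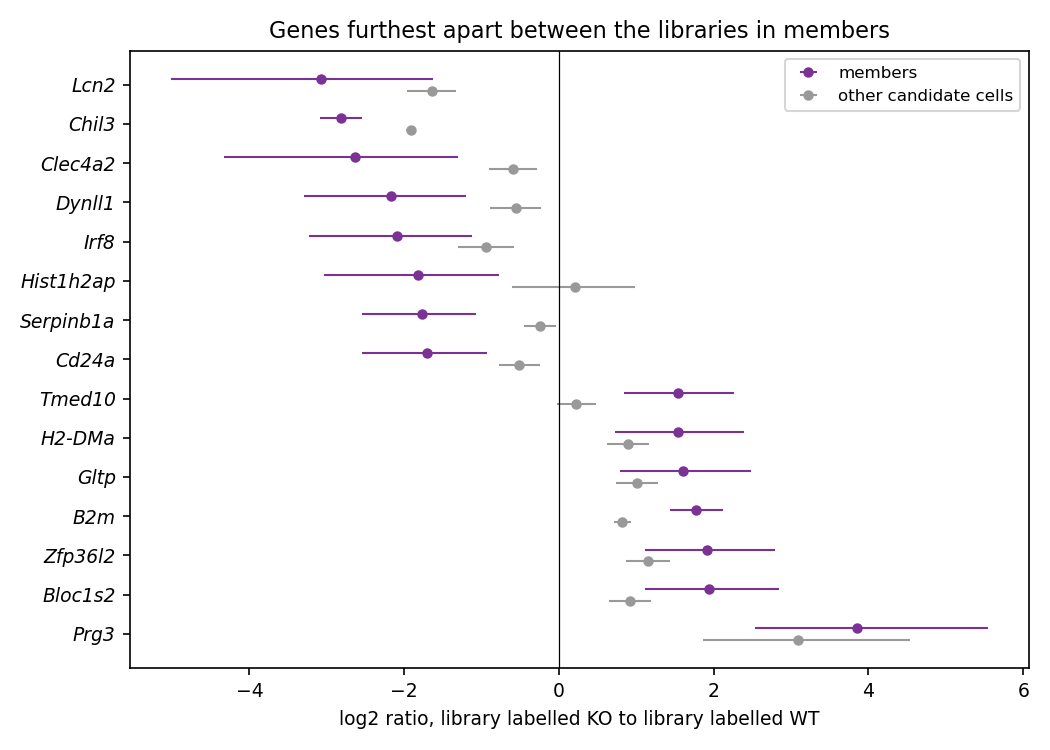
Log2 ratio of CPM in the KO-labelled library to that in the WT-labelled library for the genes furthest apart in members, in members (purple) and in other candidates (grey), with 95% counting intervals. *Cd74* is left out because members of the WT-labelled library had 0 UMIs; all genes shown except *Hist1h2ap* have the same sign in both groups of cells.

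The largest values in the KO-labelled library came from few cells. *Cd74*, the invariant chain of MHC class II, had 227 UMIs in its members and 0 in those of the WT-labelled library, at least 110-fold higher when the 0 is set to 3 counts over the group, and other candidates had 326 and 3090 CPM. Of the 227, 216 lay in 3 cells with 90, 83 and 43 UMIs. These 3 cells also held 8, 19 and 10 UMIs of the class II gene *H2-Aa*, but 1 or 2 rule UMIs and between 2 and 4 UMIs of the 126 replication genes in 962 to 1000 UMIs in all. *Prg3*, a granule protein of eosinophils, had 50 UMIs in 2 members of the KO-labelled library, 40 of them in 1 cell. That cell held 2 rule UMIs and 18 UMIs of the replication genes. Without the cells of 1 or 2 rule UMIs, members of the KO-labelled library held 3 *Cd74* UMIs.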

How the data were processed

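The deposited values are counts. Per the labels, the authors ran Cell Ranger (1.3.1, mm10, from the submitters' processing notes) and deposited 1 matrix of UMI counts, not normalized, with 27998 genes and 8309 cells. The study's methods name a different version of Cell Ranger. The labels do not say which barcode suffix is which genotype. Suffix 1 was taken as the KO-labelled library and suffix 2 as the WT-labelled library, after the analysis code published with the study. After the 500-gene filter 3866 (WT) and 3545 (KO) cells were left, of median depth 2588.5 and 1884 UMIs per cell.

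Members were found by the rule given in the text, and the members and gene lists were chosen with earlier results of these data known. UMIs were summed over the cells of a library and scaled to CPM. Poisson intervals, Clopper-Pearson intervals for shares and conditional binomial intervals for ratios are exact and cover counting error only. With 1 library per genotype no test was possible and no p-value is given. A gene was called at 1.5-fold in both libraries, among genes with 20 or more UMIs over candidates in each; between libraries, among genes with 50 or more UMIs over members. A group at 0 was set to 3 counts. Genes were named by rule: those of the cell choice, the 6 with most UMIs per list, the 10 highest and lowest against other candidates, the 8 highest and lowest between libraries, and the 5 that differed most between the upper and lower members. *Ctss*, *Ly86*, *Csf1r*, *Egr1* and *H2-Aa* were named after their values were seen. Doublets were neither called nor tested; leaving out the 5% of cells with most UMIs, an alternative, removed no candidate. Promoter sequence came from RefSeq, matched by symbol (2339 of 3052 genes tested). Python 3.11.15, numpy 2.4.6, scipy 1.17.1 and pandas 2.3.3 were used.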

Additional observations from a re-analysis of the deposited data

Results flagged for a closer look

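Cells under 500 genes stayed out of every comparison, and they too held transcripts of the 6 rule genes: 175 CPM (124 to 239; 39 UMIs in 203 cells) in the WT-labelled library and 334 CPM (291 to 381; 222 UMIs in 695 cells) in the KO-labelled library. Both values are above the level that 3 counts allow (13.4 and 4.51 CPM). Groups here are single libraries, so no search for samples that stand apart was possible.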

How the results depend on the processing

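No paired analysis was possible because each genotype had a single library. Values below are log2 ratios or counts of genes. The member share (KO to WT, 0.74) was −0.014 with the highest 10% of each library taken apart, by construction, 0.18 with shares thinned, 0.29 with the rule on thinned cells, 0.17 with mitotic cells kept and 0.11 with 3 or more rule UMIs, and the intervals of these 5 values include 0. The intervals also include 0 with the highest 5% (0.85, −0.09 to 1.80), the highest 20% (0.43, −0.02 to 0.89) and 1000 or more genes (1.05, −1.01 to 2.72). On leaving out each rule gene in turn the share ratio was 0.33 to 0.95. Its interval included 0 without *Pcna* (0.33, −0.32 to 0.98). The replication gene ratio of members to other candidates (1.46 in the WT-labelled library, 1.14 in the KO-labelled library) stayed above 0 throughout. It was 1.82 and 1.49 with the highest 5%, 0.97 in the WT-labelled library with the highest 20%, 1.35 there with libraries apart, 1.29 there with the rule on thinned cells, 1.2999 there with shares thinned, 1.62 in the KO-labelled library with 1000 or more genes (18 members), 1.74 and 1.60 with 3 or more rule UMIs, and 0.98 in the KO-labelled library as a mean over cells. Rule genes left out in turn gave 1.36 to 1.51 and 0.88 to 1.32. The replication gene ratio between libraries (−0.23) was 0.073 with the highest 20%, 0.038 with libraries apart, −0.044 with the rule on thinned cells, 0.10 with shares thinned (an alternative chosen after seeing the data), 0.11 with 1000 or more genes, −0.0084 with 3 or more rule UMIs, and 0.070 with counts thinned. Without each rule gene it ran from −0.48 to 0.027, and it changed sign without *Pcna*. Higher genes (161) numbered 245 with the highest 5%, 528 with the rule on thinned cells, 24 with 1000 or more genes, 245 with mitotic cells kept, 252 with 3 or more rule UMIs, 53 at 2-fold and 668 with no minimum. Lower genes (187) numbered 103 with the highest 20%, 580 with the rule on thinned cells, 43 with 1000 or more genes and 59 at 2-fold. Genes apart between libraries (190) numbered 94 with the highest 5%, 313 with the highest 20%, 508 with the rule on thinned cells, 76 with 1000 or more genes, 118 with 3 or more rule UMIs, 64 at 2-fold and 2538 with no minimum. Rules that change the number of cells or UMIs change these counts by construction; other causes were not tested. Of all values recomputed, 84 kept their direction and stayed within 1.5 times for counts of genes or within the counting interval for ratios, 33 moved further and 7 changed sign. The values without the 5% of cells with most UMIs are unchanged by construction, since no candidate was among these cells. At these depths a gene needs several UMIs over 40 and 45 members to be compared at all.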
